A study of Arabidopsis with 9 samples.

Results

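Gene expression in Arabidopsis seedlings of a condition named 310-3d was compared with that of the wild type (WT) across 18311 tested loci. The labels give 3 samples of the genotype swi3d-1, 3 of syd-5 and 3 of WT, all untreated 14-day-old seedlings grown in long days, with RNA sequenced as paired reads. No label uses the name 310-3d. Among the labelled genotypes swi3d-1 alone lacks a condition of its own name in the authors' deposited table, so the pairing rests on elimination and the condition is called 310-3d throughout. The labels name no ecotype, no lesion and no second swi3d allele, so any match to that mutant would rest on a single line. The members are the loci that the table marks as tested between 310-3d and WT and that reached at least 1 FPKM (fragments scaled to transcript length and to sequencing depth) in either of them, 18311 of the 31747 loci listed. By the higher of the pair of values, the lowest member had 1.00009 FPKM and the highest locus left out 0.999. A further 922 tested loci stayed under that level, 12512 were not tested by the authors, and 2 were marked as having too much data. The table gives 1 pooled FPKM per locus and condition, so neither a standard deviation nor an n stands beside the values below.

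SWI/SNF complexes use the energy of ATP to slide or evict nucleosomes and so change which DNA is open to transcription factors. In plants the motor is BRM, SYD or one of the MINU proteins CHR12 and CHR23, and SWI3 proteins form the core scaffold around it. SWI3D is found in the complexes built on SYD, SWI3C in those built on BRM, and SWI3A and SWI3B in those built on the MINU proteins. Mutants of this machinery are known for small stature and for altered leaves, flowers and hormone responses.

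A call below means that the authors' test (Cuffdiff) gave q < 0.05, and "rose" and "fell" are used of 310-3d for called loci only. Log2 fold changes are of (FPKM + 1) in 310-3d over WT and understate the change of weakly expressed genes. A value in parentheses after a pair of levels, and the amount in "rose by" or "fell by", is such a log2 fold change. Standard errors are implied ones, the log2 ratio without the added 1 divided by the authors' test statistic. The labels describe biological replicates, but no value of a single library could be examined. Counts in lists and families below are to be read beside the shares over all members, 13.8% rises and 14.5% falls.

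SWI3D, the gene for which the labelled genotype swi3d-1 is named, was examined first. By the authors' deposited table SWI3D (AT4G34430, chromosome 4, 16460914 to 16465361, TAIR10) had 3.81 FPKM in 310-3d, against 16.4 in WT. Its log2 ratio was -2.11 with an implied standard error of 0.336 (q = 0.000567, the smallest among members, shared by 2621 called loci). SYD had 24.3 FPKM in 310-3d and 23.1 in WT (q = 0.767). The level of SWI3D was not used to give the condition a genotype. The genes on either side of SWI3D were not called: AT4G34420 had 1.98 FPKM in 310-3d and 1.43 in WT, and AT4G34450 had 116 in 310-3d and 124 in WT. Within 1 Mb of SWI3D 118 of 393 tested loci were called, or 30.0%, with 50 rises and 68 falls, beside 28.2% of all members.

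Few other genes of the SWI/SNF machinery were called. Of 19 subunit loci tested, 1 rose and 2 fell, SWI3D among them, where 13.8% of all members rose and 14.5% fell. BRM had 29.8 FPKM in 310-3d and 26.8 in WT, CHR12 had 11.8 in 310-3d and 13.5 in WT, and CHR23 had 5.61 in 310-3d and 6.79 in WT, none of them called. Among the other SWI3 genes, SWI3B stood highest relative to WT, at 21.9 FPKM in 310-3d and 17.4 in WT (authors' deposited table, q = 0.0694). SWI3C had 18.6 FPKM in 310-3d and 17.6 in WT. SWI3A, merged with AT2G47630, had 26.9 in 310-3d and 26.0 in WT. The rise was that of AT5G55040, at 27.9 FPKM in 310-3d against 20.4 in WT. The other fall was a locus where AT3G03460 is merged with the cytochrome P450 gene CYP89A9, at 18.6 FPKM in 310-3d against 38.0 in WT. Where genes share a merged locus, their reads cannot be assigned to either.

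Among chromatin regulators outside SWI/SNF, none of 9 other remodellers and none of 15 Polycomb and trithorax loci was called with Cuffdiff in the authors' deposited table. The share called over all members was 28.2%. At an unadjusted p under 0.05 there was 1 lower locus among the remodellers and 1 higher among the Polycomb and trithorax loci. DDM1, a remodeller needed for DNA methylation, had 5.65 FPKM in 310-3d and 7.43 in WT (authors' q = 0.0527). CLF, a histone methyltransferase of Polycomb complexes, had 10.8 FPKM in 310-3d and 7.74 in WT (authors' q = 0.207).

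Across all members 5170 loci were called, or 28.2%. Of these 2521 rose, 13.8% of all members, and 2649 fell, 14.5% of all members. Rises had a median of 0.70 log2 units and falls one of -0.65, beside -0.02 over all 18311 members. Most loci lay near the diagonal: 74.5% were within 0.5 log2 units of no change. A rise of at least 1 log2 unit was reached by 685 called loci, at least 2 by 89 and at least 4 by 5. Falls of at least 1 unit numbered 566, of at least 2 units 77 and of at least 4 units 2. Large differences were not always called, and 103 higher and 77 lower loci past 1 log2 unit missed the threshold.

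**Figure D1:**
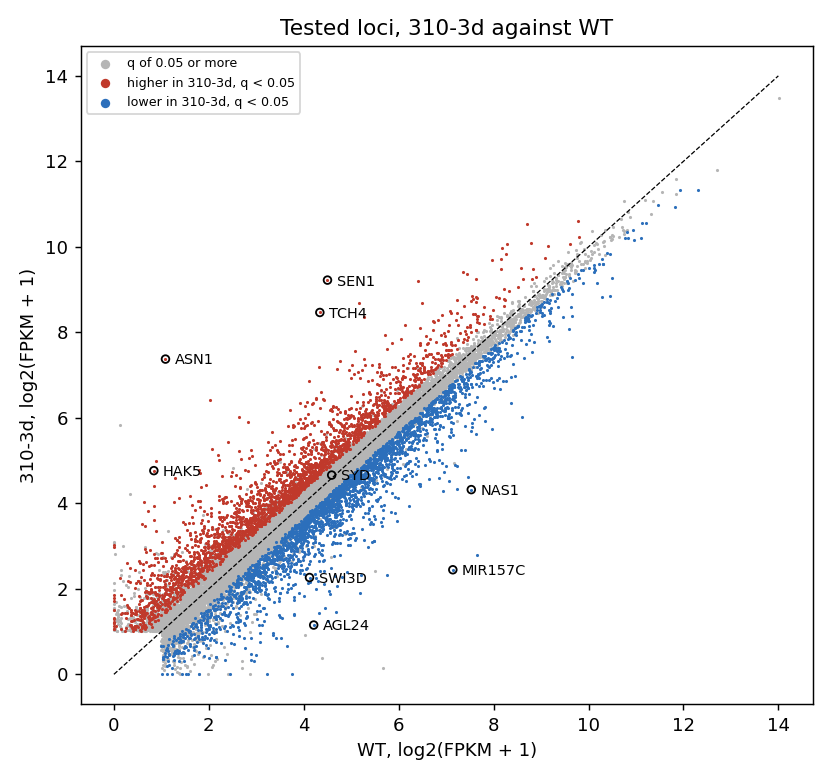
Pooled expression of the 18311 tested loci, log2(FPKM + 1) in 310-3d on the vertical axis and in WT on the horizontal axis, 1 point per locus. Red points are the 2521 called rises, blue points the 2649 called falls, grey points loci not called, and the dashed line marks equal levels. ASN1, SEN1, TCH4 and HAK5 lie far above the line, MIR157C, NAS1, AGL24 and SWI3D below it, and SYD on it.

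Precision and the share of calls both varied with the expression level. In the fifth of members with the lowest mean FPKM, 14.7% rose and 8.82% fell, with a median implied standard error of 0.604. In the fifth with the highest, 13.2% rose and 20.7% fell, with a median error of 0.228. The 5 nuclear chromosomes had similar shares of called loci, from 27.5% on chromosome 3 to 30.0% on chromosome 4. Of 77 loci annotated as pseudogenes 15 rose and 4 fell, or 19.5% and 5.19%. Of 76 transcribed pseudogenes 17 rose and 3 fell, or 22.4% and 3.95%. The shares over all members were 13.8% rises and 14.5% falls. The fifth with the lowest mean FPKM also had more rises than falls, and the part of expression level in the pseudogene counts was not tested. A total of 578 members reached 1 FPKM in 310-3d only and 424 in WT only.

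Expression markers of the seedling's tissues were present in both conditions. The 4 green tissue markers summed to 14814 FPKM in 310-3d and 20160 in WT, and 1 of them rose. RBCS1A, a Rubisco small subunit gene with near-identical copies, had 11514 FPKM in 310-3d and 16594 in WT (authors' deposited table, q = 0.376). The 12 root markers summed to 2369 FPKM in 310-3d and 1934 in WT. Most of either sum was PYK10, at 2146 in 310-3d and 1722 in WT without a call (authors' q = 0.393). The 12 root markers had 4 rises and 2 falls, beside 13.8% and 14.5% of all members. Among the rises was the Casparian strip gene CASP5, at 6.28 FPKM in 310-3d against 2.01 in WT, and the falls were SCR and PHT1;1. All 4 guard cell markers fell. Their sum was 800 FPKM in 310-3d and 1319 in WT, most of it TGG1, at 779 in 310-3d and 1265 in WT. FAMA, a transcription factor of the last step of the stomatal lineage, had 10.1 in 310-3d against 20.2 in WT. In RNA of seedlings fewer cells of a type and less RNA per cell cannot be told apart, and the part of tissue make-up in the results below was not tested. Of 3 phloem markers 2 rose, and of 3 xylem markers none was called (authors' Cuffdiff test; 1 was lower at an unadjusted p under 0.05). Of 5 flower markers 2 were tested, AP3 through 310-3d only. SEP3 rose, at 14.7 FPKM in 310-3d against 2.14 in WT, while AP3 had 1.41 in 310-3d and 0.0805 in WT and was not called. The other 3 stayed under 1 FPKM in both conditions. PI had 0.790 FPKM in 310-3d and 0.447 in WT, SEP1 had 0.218 in 310-3d and 0.616 in WT, and AG had 0.190 in 310-3d and 0.223 in WT. Of 6 seed storage and late embryogenesis genes 2 were tested, both through 310-3d only, and CRA1 had 2.60 FPKM in 310-3d and 0.110 in WT.

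The largest rises were led by genes of dark response, cell wall and potassium uptake. According to the authors' deposited table, ASN1, a glutamine-dependent asparagine synthetase, had 165 FPKM in 310-3d and 1.12 in WT, a log2 fold change of 6.29. SEN1 (AT4G35770), induced in darkness and senescence, had 596 FPKM in 310-3d and 21.6 in WT (4.72). PHI-1, of the EXORDIUM family of extracellular proteins, had 85.1 in 310-3d and 3.06 in WT (4.41), and its relative EXO had 413 in 310-3d and 34.6 in WT (3.54). The 2 family members thus stood more than 3 log2 units above WT. HAK5, the high-affinity potassium transporter of roots, had 26.2 FPKM in 310-3d and 0.792 in WT (3.92). JAZ7, a repressor of jasmonate signalling, had 15.3 in 310-3d and 0.560 in WT (3.39). The wall enzyme genes TCH4 (4.13) and XTR6 (3.38) and the lipid transfer gene LTP4 (4.10) are described with their families below. AT4G12735 (3.56), AT1G70880 (3.30) and the merged locus of AT4G01380 and AT4G01390 (3.21) complete the 12 largest.

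The largest falls were led by a member of the iron deficiency list and a microRNA precursor. AT2G30766 had 5.94 FPKM in 310-3d and 199 in WT in the authors' deposited table, a log2 fold change of -4.85. Its log2 ratio of -5.07 had an implied standard error of 2.18 (q = 0.00695), against a median of 0.293 over all members. MIR157C was known much more precisely: 4.45 FPKM in 310-3d, 140.1 in WT, and an error of 0.308. AT4G33720 was listed at 0 in 310-3d and at 12.4 FPKM in WT. NAS1, a nicotianamine synthase that serves iron transport, had 19.0 FPKM in 310-3d and 184 in WT (-3.21). AGL24, a MADS-box promoter of flowering, had 1.22 in 310-3d and 17.5 in WT (-3.06), and PRB1, a basic relative of the defence protein PR1, had 1.95 in 310-3d and 20.8 in WT (-2.89). The low-sulphur genes LSU3 (-3.26) and LSU1 (-2.90) were also among the 12. The others were AT5G05250 (-3.45), AT1G47395 (-3.28), AT3G21460 (-2.995) and the locus of the U12 spliceosomal RNA merged with AT1G61280 (-3.21).

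**Figure D2:**
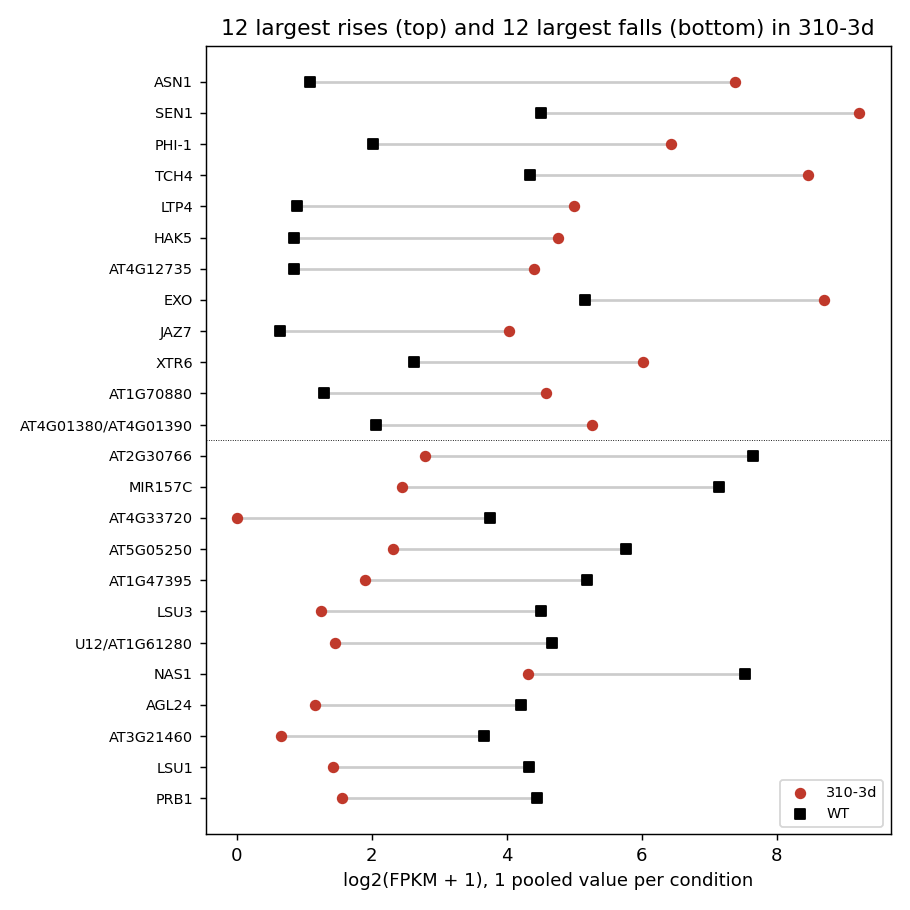
The 12 largest called rises (upper block) and 12 largest called falls (lower block) among loci averaging 5 FPKM or more over the pair, log2(FPKM + 1) on the horizontal axis. Red circles are 310-3d, black squares are WT, and each is 1 pooled value; the grey line joins the pair. SEN1 has the highest 310-3d value of these loci, 596 FPKM, and AT4G33720 is listed at 0 in 310-3d.

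Some differences of similar size were not called. Per the authors' deposited table, AT1G13609 had 0.110 FPKM in 310-3d and 49.6 in WT (q = 0.386), and AT2G44130 had 17.5 in 310-3d and 0.267 in WT (q = 0.269). Their log2 ratios had implied standard errors of 2.56 and 2.75. MT1B, a metallothionein gene, had 4.36 FPKM in 310-3d and 44.6 in WT, with an error of 4.37 (authors' q = 0.417).

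Genes of the starvation response to darkness and low sugar rose almost as a block. When sugar runs short, plants switch on the breakdown of amino acids, cell wall polymers and stored carbon, and store nitrogen in asparagine. Of 23 listed genes, all tested, 20 rose and 0 fell, the median log2 fold change was 1.12, and 13 rises reached at least 1 unit. DIN2 reached 1 FPKM in 310-3d only and had to be higher to pass in this way. Over the loci at 1 FPKM or more in both conditions, 19 rose, 0 fell and the median was 1.08. With Cuffdiff, 1 member was lower at an unadjusted p under 0.05. In the authors' deposited table DIN10, a raffinose-family synthase, had 683 FPKM in 310-3d and 162 in WT (2.07), and DIN2, a beta-glucosidase, had 10.4 in 310-3d and 0.509 in WT (2.92). ERD5, the proline dehydrogenase of mitochondria, had 591 in 310-3d and 83.3 in WT (2.81). Enzymes that break down branched-chain amino acids rose too. The aminotransferase gene BCAT2 had 15.7 FPKM in 310-3d and 2.41 in WT (2.30), and MCCA, a carboxylase subunit of leucine breakdown, had 66.6 in 310-3d and 16.02 in WT (1.99). The glutamate dehydrogenase gene GDH2 had 326 in 310-3d and 158 in WT (1.04). The 3 members not called were DIN9, KMD4 and TPS9, which is merged with a neighbour; DIN9 had 2.65 FPKM in 310-3d and 3.77 in WT.

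Genes of leaf senescence and chlorophyll breakdown had more falls than rises. Of 13 tested, 4 rose and 6 fell (median log2 fold change -0.57), beside 13.8% and 14.5% of all members, and SAG12 was not tested. Of the 13, 1 reached 1 FPKM in 310-3d only, and over those at that level in both conditions 3 rose and 6 fell. By the authors' deposited table the transcription factor genes NAC092, a promoter of leaf ageing, and NAP were both lower: NAC092 had 10.96 FPKM in 310-3d and 61.7 in WT (-2.39), and NAP had 3.05 in 310-3d and 12.4 in WT (-1.72). Chlorophyll breakdown genes were among the falls, with NYC1 at -0.59 and PPH at -0.57. SAG13, in contrast, rose to 26.5 FPKM in 310-3d, against 5.80 in WT (2.02). Autophagy, the recycling route that starvation also turns on, had 1 rise among 14 tested genes, beside 13.8% of all members. The rise was ATG8E, at 134 FPKM in 310-3d and 95.3 in WT.

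**Figure D3:**
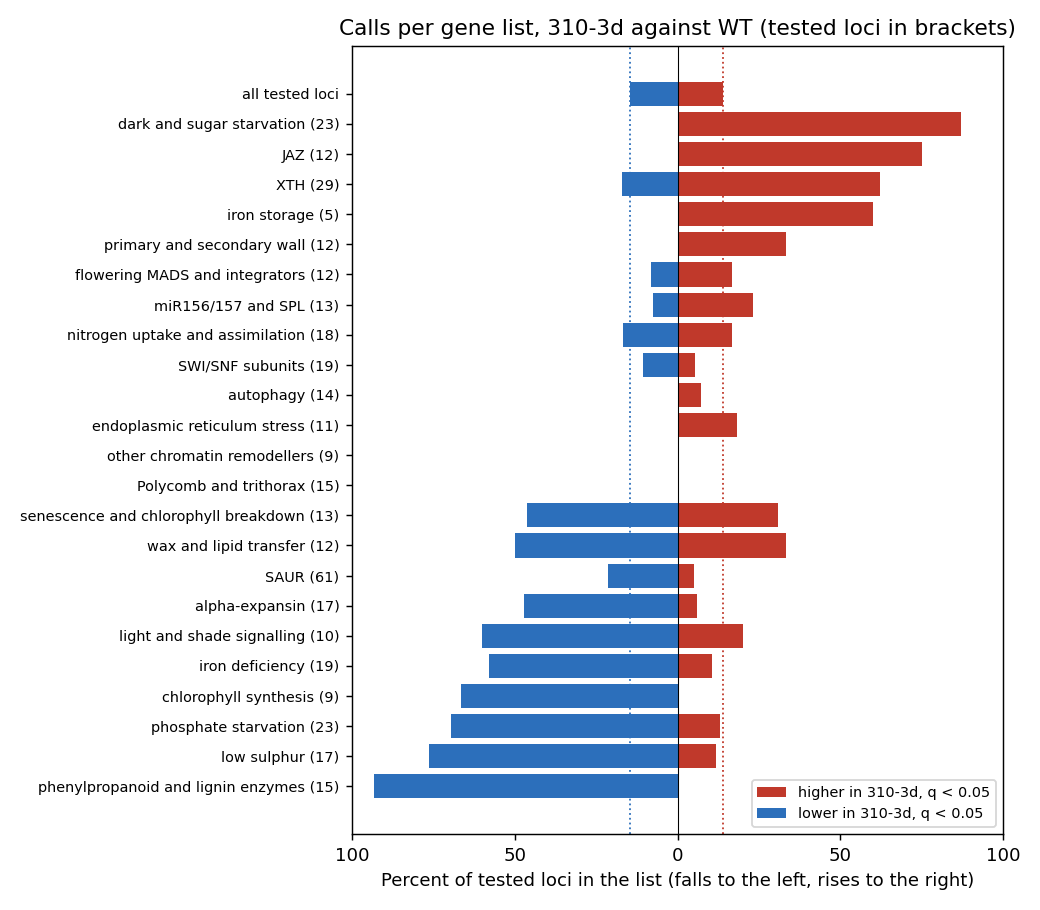
Share of called loci in each gene list or family, as percent of its tested loci, rises to the right in red and falls to the left in blue, for 310-3d against WT. Dotted lines and the top bar give the shares over all tested loci, 13.8% and 14.5%. The dark and sugar starvation list has 20 of 23 members among the rises, and the phenylpropanoid list 14 of 15 among the falls; lists differ in size, given in brackets, and were drawn up with results of these data known.

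Iron genes were split between uptake and storage. Plants short of iron switch on a set of bHLH regulators, signal peptides and transporters, while ferritins store iron when it is ample. Of 19 tested loci of the iron deficiency list, which holds 23 genes, 11 fell and 2 rose (median log2 fold change -1.60). Of these 19, 6 reached 1 FPKM in WT only, and had to be lower in 310-3d to pass in this way; over the loci at 1 FPKM or more in both, 7 fell and the median was -0.96. According to the authors' deposited table, IRT1, the main iron transporter of the root surface, had 0.803 FPKM in 310-3d and 10.6 in WT (-2.68). OPT3, which moves iron in the phloem, had 18.5 in 310-3d and 122 in WT (-2.66). The merged locus of the regulators BHLH38 and BHLH39 had 0.884 in 310-3d and 9.23 in WT (-2.44), and BHLH101 had 0.625 in 310-3d and 4.77 in WT (-1.83). BHLH100 had 0.105 FPKM in 310-3d and 5.53 in WT without a call (authors' q = 0.485), and so did AT1G47400, with 0.310 in 310-3d and 20.0 in WT (authors' q = 0.142). BTS, a ubiquitin ligase that restrains the response, fell by 0.96, and the reductase gene FRO3 by 1.16.

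Not every iron gene was lower in 310-3d. FIT, the master regulator of uptake in the root, had 8.37 FPKM in 310-3d and 6.28 in WT, and ILR3 had 87.2 in 310-3d and 94.1 in WT, neither called. NAS2 rose to 2.93 FPKM in 310-3d, against 1.13 in WT, and F6'H1, which makes iron-mobilising coumarins, to 19.4 in 310-3d, against 12.3 in WT. Of 5 tested storage genes 3 rose and 0 fell, with none lower at an unadjusted p under 0.05 in the authors' Cuffdiff test. FER1, the main leaf ferritin gene, had 428 FPKM in 310-3d and 148 in WT (1.52), VTL2, a vacuolar iron transporter-like gene, had 5.51 in 310-3d and 2.81 in WT (0.77), and FER3 rose by 0.33.

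Phosphate starvation genes were mostly lower, across signalling, lipid remodelling and uptake. Of 23 tested, 16 fell and 3 rose (median log2 fold change -0.66). Per the authors' deposited table, the noncoding RNA IPS1, which sequesters miR399, had 13.3 FPKM in 310-3d and 50.2 in WT (-1.84). The phosphate sensor gene SPX1 had 37.8 in 310-3d and 119.9 in WT (-1.64), while PHR1, the transcription factor that drives the response, had 39.4 in 310-3d and 34.1 in WT and was not called. Among genes for phosphate release, PS2 had 7.75 FPKM in 310-3d and 43.5 in WT (-2.35), PEPC1 had 7.40 in 310-3d and 26.3 in WT (-1.70), and the acid phosphatase PAP17 had 36.9 in 310-3d and 111 in WT (-1.56). MGD3, which makes galactolipids to spare phospholipids, had 4.08 in 310-3d and 14.97 in WT (-1.65). The transporter PHT1;4 had 21.0 in 310-3d and 55.1 in WT (-1.35). The rises were PHO2, a brake on uptake (0.50), the xylem loader PHO1 (0.69) and the ribonuclease gene RNS1, at 4.80 FPKM in 310-3d against 1.84 in WT (1.03).

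Most low-sulphur genes were lower in 310-3d, and sulphate transporters went both ways. Of 17 tested, 13 fell and 2 rose (median log2 fold change -1.25). BGLU28 and SULTR1;1 reached 1 FPKM in WT only and had to be lower in 310-3d to pass in this way; over the loci at 1 FPKM or more in both, 11 fell, 2 rose and the median was -1.86. Of the 10 response genes 9 fell. In the authors' deposited table LSU3 had 1.37 FPKM in 310-3d and 21.7 in WT, LSU1 had 1.68 in 310-3d and 19.1 in WT, and LSU2 had 7.82 in 310-3d and 37.5 in WT (-2.13). LSU4, at 1.23 in 310-3d and 2.81 in WT, was not called (authors' q = 0.124). SDI1, which limits glucosinolate synthesis under low sulphur, fell by 2.19, and GGCT2;1, an enzyme of glutathione breakdown, by 2.23. All 3 genes of the sulphate-reducing enzyme APR fell: APR1 to 20.2 FPKM in 310-3d, against 86.0 in WT, APR2 to 79.3 in 310-3d, against 177 in WT, and APR3 to 48.0 in 310-3d, against 197 in WT. SLIM1, the regulator of the response, fell by 0.48. The transporter gene SULTR1;1 fell (-0.59), whereas SULTR1;2 rose to 47.2 FPKM in 310-3d, against 32.2 in WT (0.54), and SULTR2;1 to 77.4 in 310-3d, against 36.8 in WT (1.05).

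Of 18 tested nitrogen uptake and assimilation genes, from 21 listed, 3 rose and 3 fell, shares near the 13.8% and 14.5% of all members. Their median change was 0.04 log2 units, and -0.01 with no filter on FPKM. By the authors' deposited table the nitrate reductase gene NIA1 had 313 FPKM in 310-3d and 269 in WT, and NIR1, the nitrite reductase, had 224 in 310-3d and 233 in WT, neither called. AMT1;2, an ammonium transporter, fell to 12.7 FPKM in 310-3d, against 39.9 in WT (-1.58). ASN2, the asparagine synthetase used in light, fell to 174 in 310-3d, against 325 in WT (-0.90), opposite to ASN1. BT2, a regulator of nitrate responses, rose to 386 in 310-3d, against 223 in WT (0.79).

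**Figure D4:**
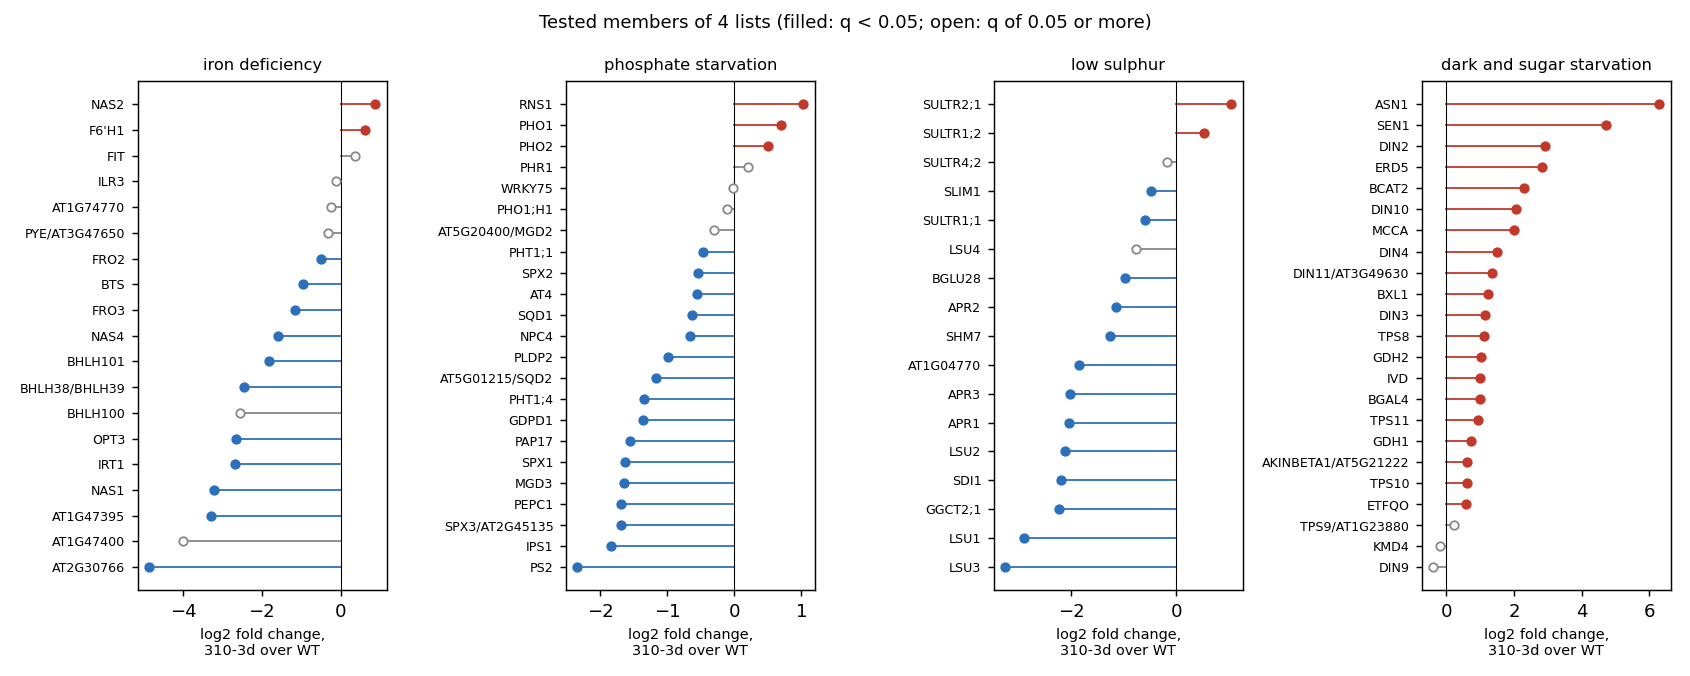
Log2 fold change of (FPKM + 1), 310-3d over WT, for every tested locus of the iron deficiency, phosphate starvation, low sulphur, and dark and sugar starvation lists. Filled points passed q < 0.05 (red higher, blue lower in 310-3d), open points did not, and each panel has its own scale. The first 3 lists lie mainly left of 0, with 11 of 19, 16 of 23 and 13 of 17 loci called as falls, and the fourth lies mainly right of 0.

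Cell wall genes divided by family. XTH enzymes cut and rejoin xyloglucan, the polymer that tethers cellulose, and alpha-expansins loosen walls in growing cells. Of 29 tested XTH genes 18 rose and 5 fell; the median log2 fold change was 0.84, and 13 of the rises reached at least 1 unit. According to the authors' deposited table, TCH4 (XTH22), induced by touch, had 352 FPKM in 310-3d and 19.2 in WT, and XTR6 (XTH23) had 63.7 in 310-3d and 5.19 in WT. XTH25 had 10.1 in 310-3d and 0.567 in WT (2.83), and XTH16 had 141 in 310-3d and 25.1 in WT (2.44). The family's falls were led by XTH31, at 28.9 FPKM in 310-3d against 144 in WT (-2.28), XTH32 (-1.49) and XTH7, at 116 in 310-3d against 308 in WT (-1.40). Alpha-expansins went mainly the other way, with 8 falls and 1 rise among 17 and a median of -0.61. EXPA10 had 23.6 FPKM in 310-3d and 175 in WT (-2.84), EXPA1 had 64.3 in 310-3d and 385 in WT (-2.56), and EXPA8 had 12.9 in 310-3d and 56.0 in WT (-2.03). The rise was EXPA14, at 10.1 in 310-3d against 4.57 in WT.

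Of 12 tested loci on a list of primary and secondary wall genes 4 rose and 0 fell, with none lower at an unadjusted p under 0.05 in the authors' Cuffdiff test. Per the authors' deposited table, the primary wall synthase CESA3 had 209 FPKM in 310-3d and 145 in WT (0.52), and CESA6 had 99.5 in 310-3d and 71.2 in WT (0.48). CESA1, of the same complex, had 168 in 310-3d and 132 in WT without a call (authors' q = 0.0526). Of the secondary wall synthases, CESA8 rose by 0.38, CESA7 had 6.02 in 310-3d and 5.79 in WT without a call, and CESA4 shares its locus with AT5G44020, at 834 in 310-3d against 286 in WT, so its own level is unknown. Of 13 loci matched by a calmodulin-like (CML) symbol 4 rose and 2 fell, beside 13.8% and 14.5% of all members. Of the 13, 2 reached 1 FPKM in WT only, and over those at that level in both conditions 4 rose and 1 fell. TCH3, touch-induced like TCH4, had 655 FPKM in 310-3d and 173 in WT (1.91), CML38 had 12.5 in 310-3d and 2.88 in WT (1.80), and CAM8 had 0.399 in 310-3d and 6.45 in WT (-2.41). Of 13 PIP aquaporins, water channels of the plasma membrane, 2 rose and 4 fell, beside 13.8% and 14.5% of all members. The largest rise was PIP2;7, at 915 in 310-3d against 308 in WT (1.57).

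The route from phenylalanine to lignin and other phenolics was lower at nearly every step. Of 15 tested loci 14 fell and 0 rose (median log2 fold change -0.85), with none higher at an unadjusted p under 0.05 in the authors' Cuffdiff test. In the authors' deposited table PAL1, the entry enzyme, had 68.0 FPKM in 310-3d and 176 in WT (-1.36). 4CL3, the ligase that serves flavonoids, had 4.31 in 310-3d and 19.4 in WT (-1.94). FAH1, which makes sinapate and syringyl units, had 27.3 in 310-3d and 61.5 in WT (-1.14), and CAD4, which makes the lignin alcohols, had 78.0 in 310-3d and 173 in WT (-1.14). CCoAOMT1 had 329 in 310-3d and 704 in WT (-1.09). The locus not called was PAL4, merged with a neighbour, at 39.1 FPKM in 310-3d and 42.1 in WT. MYB111, an activator of flavonol synthesis, had 1.21 in 310-3d and 7.72 in WT (-1.98).

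UDP-sugar glycosyltransferases, which attach sugars to phenolics and hormones, had 17 falls and 7 rises among 49 tested loci, of which 10 are merged. The shares over all members were 14.5% falls and 13.8% rises. UGT75B1 had 21.8 FPKM in 310-3d and 132 in WT (-2.54), with an implied error of 0.834. AT1G05562, which overlaps it on chromosome 1, had 29.9 in 310-3d and 142 in WT without a call (authors' q = 0.0671). With strandedness not given, how reads were split between this pair is uncertain. UGT74D1 had 22.7 in 310-3d and 99.3 in WT (-2.08). Cytochrome P450 genes went both ways, with 43 rises and 37 falls among 145, of which 10 reached 1 FPKM in 310-3d only and 6 in WT only. CYP705A5 had 55.5 FPKM in 310-3d and 11.7 in WT (2.15). The abscisic acid hydroxylase genes moved apart: CYP707A2 fell to 0.954 in 310-3d, against 9.19 in WT (-2.38), and CYP707A3 rose to 5.61 in 310-3d, against 0.867 in WT (1.82). Of 11 phi-class glutathione transferase loci 5 rose and 0 fell (authors' Cuffdiff test; none was lower at an unadjusted p under 0.05). The tau class had 5 rises and 9 falls among 22, with GSTU25 at 71.4 FPKM in 310-3d against 22.3 in WT and GSTU7 at 49.6 in 310-3d against 137 in WT. Members of these families share sequence, and how reads that match several copies were counted is not given in the sources used here.

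Lipid transfer genes, which code for small secreted proteins of the cuticle and defence, changed in opposite directions. The list of wax and lipid transfer genes had 4 rises and 6 falls among 12 tested, beside 13.8% and 14.5% of all members. LTP4 reached 1 FPKM in 310-3d only, and over those at that level in both conditions 3 rose and 6 fell. By the authors' deposited table LTP4 had 30.9 FPKM in 310-3d and 0.862 in WT (4.10), and LTP3 had 25.3 in 310-3d and 2.504 in WT (2.91). The more abundant LTP5 had 331 in 310-3d and 809 in WT (-1.29), and LTP1 fell by 0.67. LTP3 and LTP4 are close copies, so the split of reads between them is uncertain. Of the wax genes, KCS1, which lengthens fatty acids, had 57.2 FPKM in 310-3d and 22.2 in WT (1.33), and CER1, which makes alkanes, had 5.29 in 310-3d and 8.93 in WT (-0.66).

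Light signalling and chlorophyll synthesis genes were mostly lower. Of 10 tested light genes 6 fell and 2 rose. According to the authors' deposited table, ELIP2, an early light-induced protein that protects plastids, had 4.31 FPKM in 310-3d and 20.4 in WT (-2.01), and ELIP1 had 7.15 in 310-3d and 30.2 in WT (-1.94). The growth-promoting PIF genes, whose proteins phytochromes degrade, did not move together: PIF3 had 11.99 in 310-3d and 29.8 in WT (-1.24), while PIF5 had 17.3 in 310-3d and 7.45 in WT (1.12). The photoreceptor genes differed too, with PHYA at 62.3 FPKM in 310-3d against 34.2 in WT and PHYB at 20.9 in 310-3d against 33.3 in WT. Of 9 chlorophyll synthesis genes and regulators 6 fell and 0 rose, with 1 higher at an unadjusted p under 0.05 in the authors' Cuffdiff test. GLK1 and GLK2, which switch on photosynthesis genes, had 23.1 and 23.3 FPKM in 310-3d, against 58.8 and 48.1 in WT. In the endoplasmic reticulum stress list 2 of 11 rose, a share near the 13.8% of all members, and 0 fell, with 2 lower at an unadjusted p under 0.05 in the authors' Cuffdiff test and a list median of -0.14. The rises were the sensor gene IRE1A (0.61) and its target BZIP60 (0.44), and the chaperone gene BIP1 had 188 in 310-3d and 226 in WT without a call.

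Of 5 listed precursors of miR156 and miR157, 4 were tested and MIR157C alone was called. Precursors outside the list were not examined. miR156 and miR157 hold back SPL transcription factors and so keep plants juvenile. Per the authors' deposited table, MIR157A had 3.38 FPKM in 310-3d and 4.31 in WT, MIR156A had 1.35 in 310-3d and 1.24 in WT, and MIR156C had 2.88 in 310-3d and 2.59 in WT, none called. These are levels of precursor transcripts, not of the mature microRNAs. Of 9 tested SPL loci 3 rose: SPL2, at 22.8 FPKM in 310-3d against 10.1 in WT (1.0997), SPL4, at 4.28 in 310-3d against 1.86 in WT (0.88), and SPL10, merged with RIC2 (0.45). SPL9 had 1.88 in 310-3d and 2.34 in WT, and SPL3 had 1.79 in 310-3d and 2.62 in WT, neither called.

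Of 12 tested flowering genes 2 rose and 1 fell, beside 13.8% and 14.5% of all members. In the authors' deposited table FLC, the repressor that vernalization silences, had 15.6 FPKM in 310-3d and 3.89 in WT (1.76), and its relative MAF5 had 15.1 in 310-3d and 4.14 in WT (1.65). The other relatives FLM, MAF2, MAF3 and MAF4 were not called; FLM had 43.5 in 310-3d and 36.6 in WT. The strandedness of the libraries is not given in the sources used here, so antisense transcripts at FLC cannot be told apart from FLC. Of 9 listed promoters of flowering 5 were tested, and of these AGL24 alone was called. SOC1 had 18.1 FPKM in both conditions, FT had 4.40 in 310-3d and 2.96 in WT, and CO had 8.60 in 310-3d and 4.75 in WT.

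TCP transcription factors, which set the balance of division and growth in leaves, had 5 rises and 8 falls among 18 tested. The shares over all members were 13.8% rises and 14.5% falls. The family median was -0.23. Over its loci at 1 FPKM or more in both conditions 5 rose, 7 fell and the median was -0.04. In the CINCINNATA-type class, which ends division in leaf margins, 6 of 8 fell and 1 rose (median log2 fold change -0.55). The class was drawn up after the values were seen. TCP17 reached 1 FPKM in WT only and had to be lower in 310-3d to pass in this way. By the authors' deposited table TCP17 had 0.260 FPKM in 310-3d and 6.42 in WT (-2.56), TCP4 had 17.5 in 310-3d and 32.9 in WT (-0.87), and the rise was TCP10 (0.38). Of the other TCP genes AT5G08330, named both TCP11 and TCP21, had 42.2 in 310-3d and 16.2 in WT (1.33). TCP14, a promoter of growth in shoots, had 63.3 in 310-3d and 28.8 in WT (1.11).

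**Figure D5:**
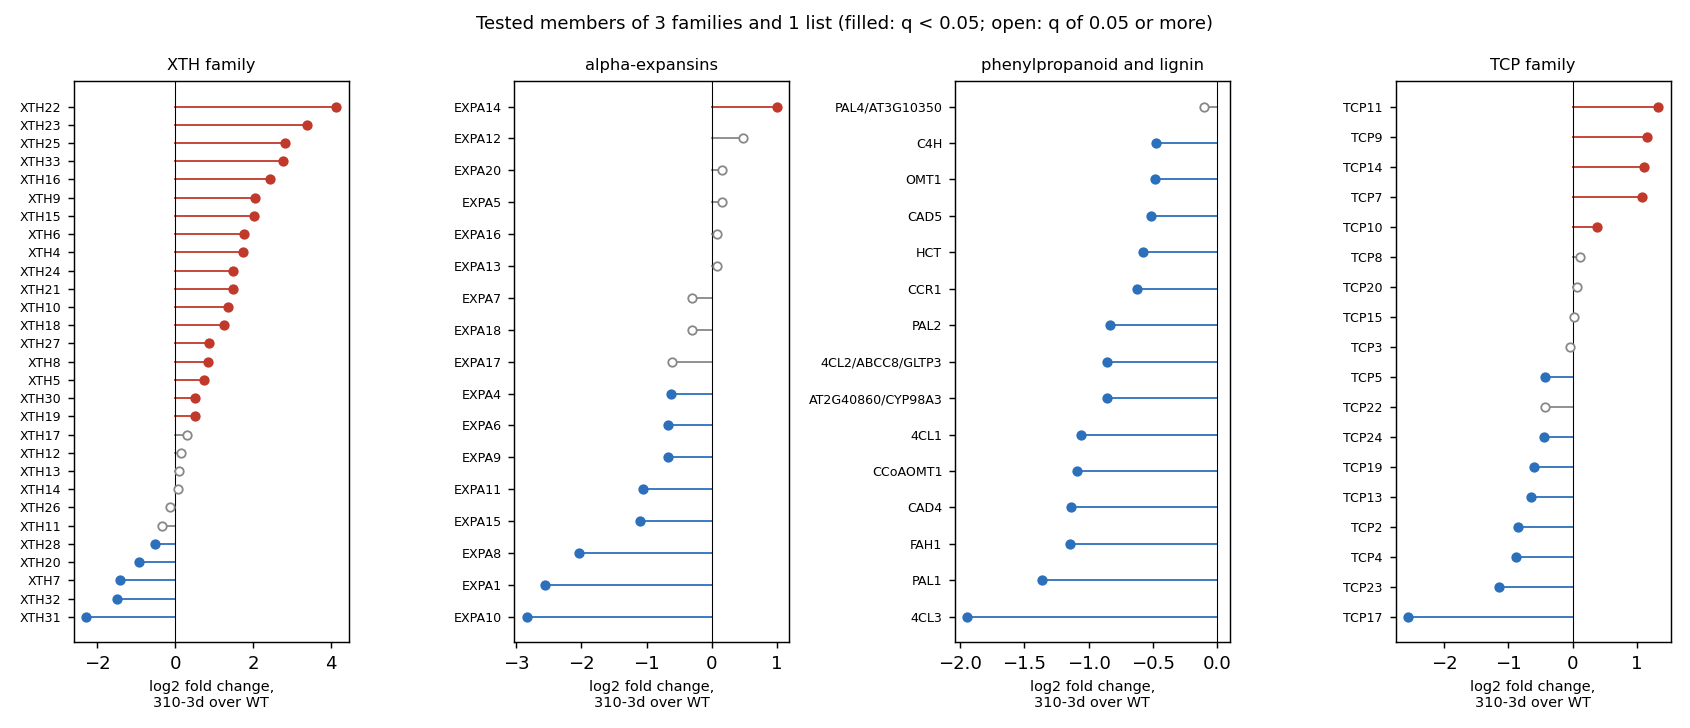
Log2 fold change of (FPKM + 1), 310-3d over WT, for every tested locus of the XTH, alpha-expansin and TCP families and the phenylpropanoid and lignin list. Filled points passed q < 0.05 (red higher, blue lower in 310-3d), open points did not, and each panel has its own scale; TCH4 is listed as XTH22 and XTR6 as XTH23. XTH genes lie mainly right of 0 with 18 rises, alpha-expansins mainly left with 8 falls, and 14 of 15 phenylpropanoid loci are falls.

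Hormone response families differed in direction, where 13.8% of all members rose and 14.5% fell. JAZ proteins repress jasmonate responses and are themselves induced by the hormone. Of 12 JAZ genes 9 rose and 0 fell, the median log2 fold change being 0.56, and 1 was lower at an unadjusted p under 0.05 in the authors' Cuffdiff test. According to the authors' deposited table, JAZ5 had 3.65 FPKM in 310-3d and 0.561 in WT (1.57), and JAZ8 had 1.48 in 310-3d and was listed at 0 in WT. With JAZ7 these are the 3 members that reached 1 FPKM in 310-3d only and so had to be higher; over those at 1 FPKM or more in both, 6 rose and the median was 0.47. Among Aux/IAA repressors of auxin signalling, IAA29 had 0.318 FPKM in 310-3d and 3.47 in WT (-1.76), and SHY2 had 35.4 in 310-3d and 14.4 in WT (1.24). Small auxin-up RNA (SAUR) genes, which promote cell expansion, had 13 falls and 3 rises among 61, with a median of -0.38 and a median implied error of 0.612, above that of all members. Of the 61, 8 reached 1 FPKM in WT only and 4 in 310-3d only; over those at that level in both, 12 fell, 2 rose and the median was -0.34. Among type-A cytokinin response regulators RR16 (ARR16) had 2.86 FPKM in 310-3d and 22.1 in WT (-2.58). In contrast, ARR6 rose by 0.84, RR5 (ARR5) by 0.53 and ARR8 (AT2G41310, also named RR3) by 0.45.

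Defence regulators of the WRKY family had 13 rises and 7 falls among 56 tested, beside 13.8% and 14.5% of all members. Of the 56, 6 reached 1 FPKM in 310-3d only and had to be higher to pass in this way, and 2 in WT only. Their median log2 fold change was 0.02, and over those at 1 FPKM or more in both it was -0.02, with 9 rises and 7 falls. Per the authors' deposited table, WRKY38 had 4.63 FPKM in 310-3d and 0.257 in WT (2.16), WRKY18 had 43.4 in 310-3d and 12.6 in WT (1.71), and WRKY28 had 1.52 in 310-3d and 5.97 in WT (-1.47). Sugar exporters of the SWEET family had 5 rises and 3 falls among 10, of which 4 reached 1 FPKM in 310-3d only. Their median was 0.61, but -0.24 over those at 1 FPKM or more in both conditions. SWEET12, which exports sucrose for phloem loading, had 121 in 310-3d and 66.0 in WT (0.86), and SWEET1 had 30.9 in 310-3d and 74.4 in WT (-1.24).

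The syd-5 comparison in the same table uses the same WT values, so its levels are given side by side only, and the difference between 310-3d and syd-5 was not tested. The genes named here were chosen after their values were seen. For some, the levels in 310-3d and syd-5 lay close to each other: MIR157C had 4.45 FPKM in 310-3d, 4.05 in syd-5 and 140.1 in WT. NAS1 had 19.0 FPKM in 310-3d, 19.8 in syd-5 and 184 in WT, IRT1 had 0.803 in 310-3d, 0.801 in syd-5 and 10.6 in WT, and EXPA1 had 64.3 in 310-3d, 59.8 in syd-5 and 385 in WT. For others they lay further apart. ASN1 had 165 FPKM in 310-3d, 78.7 in syd-5 and 1.12 in WT. FLC had 15.6 FPKM in 310-3d, 8.53 in syd-5 and 3.89 in WT, and LTP3 had 25.3 in 310-3d, 8.48 in syd-5 and 2.504 in WT. Among phosphate genes IPS1 had 13.3 FPKM in 310-3d, 3.36 in syd-5 and 50.2 in WT, and SPX1 had 37.8 in 310-3d, 18.2 in syd-5 and 119.9 in WT.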

How the data were processed

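Per the submitters' processing notes, the authors used TopHat2 2.1.1, Cufflinks 2.1.1 and Cuffdiff 2.1.1 with TAIR10. Settings, library depth and strandedness: not given in the sources used here. Per the file headers, the authors deposited for each locus an FPKM pooled over each condition's libraries, a test statistic (a score), a p-value and a q-value. No value per library is in the table, so the planned limma fit gave way to the authors' q < 0.05, the fallback named with it. Read as normal deviates, the authors' p-values exceeded the statistic by a median factor of 1.74, so at that median their own errors were smaller than the implied ones. That did not hold for every locus: AT1G13609 had a statistic of -3.44 but p = 0.178 in the authors' Cuffdiff test. From the deposited values, Python 3.11.15 with pandas 2.3.3 computed log2 fold changes with a pseudocount of 1 FPKM and counts per list, checked on simulated data. Starts were raised by 1, which made 36.3% of 28936 loci with 1 gene coincide with a RefSeq start. Of 33553 gene identifiers 32806 matched the RefSeq table of TAIR10.1, used for names only, and 1994 members merge several genes. A gene at several loci is given by the one with the highest mean FPKM. Promoter motifs were not searched, as no sequence was used here.

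The members, the 19 gene lists, the 7 marker lists and the 30 families matched by symbol were chosen with earlier results of these data known, and the CINCINNATA-type class after the values were seen. Named are SWI3D, SYD, the 12 largest called rises and 12 largest called falls averaging 5 FPKM or more, members of the SWI/SNF, iron deficiency, low sulphur and phosphate lists, and up to 4 called members in each other list or family. Other genes named were chosen after their values were seen. No set test was run, and counts and medians of lists are descriptions. Alternatives tried were the pseudocount at 0.1, the FPKM filter dropped, raised to 5 FPKM or asked of both conditions, loci with 1 gene name, q < 0.01, p adjusted by Benjamini-Hochberg within the comparison, quantile normalization and centring on the median. A few items covered by the naming rule are not reported here.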

Additional observations from a re-analysis of the deposited data

How the results depend on the processing

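The number of called loci stayed within 1.5 times 5170 under all 9 alternatives, from 3717 at q < 0.01 to 5457 with p adjusted within this comparison. Under the pseudocount of 0.1, quantile normalization and centring the authors' q was kept, so the number stayed at 5170 by construction. The changed filters and the limit to 1 gene name also kept that q and only changed which loci were counted. Called doublings ranged from 563 with a filter of 5 FPKM to 941 with a pseudocount of 0.1, and halvings from 508 to 738. The median log2 fold change of all loci lay between -0.03 and 0 under them. No named gene changed direction. Of the gene results 22 lost their call, all at q < 0.01, and 5 gained one; at q < 0.01 the merged locus of BHLH38 and BHLH39, FRO2, FER3, TPS11, CESA8, NRT1.1 and SPL10 were not called, and DDM1, CESA1, SGR1, BMI1A and the PYE locus were called with p adjusted within the comparison. The iron deficiency median lay between -2.44 (5 FPKM) and -0.96 (1 FPKM in both), and the low sulphur median was -1.94 with 5 FPKM. The green marker median turned from -0.20 to 0.16 with quantile normalization. No paired analysis was possible because the table holds pooled values only, and for the same reason no replicate could be left out. Depth per library is unknown.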

Other observations

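Several stretches of neighbouring tested loci were called in 1 direction. They were found by looking for at least 5 adjacent calls, no test was run on them, and tandem copies share reads. There were 11 such runs. On chromosome 3, 6 neighbours from 10435057 to 10468924 (TAIR10) fell in the authors' deposited table, AT3G28040 and the amino acid exporter-like genes UMAMIT41, UMAMIT46, UMAMIT47, UMAMIT45 and UMAMIT44, with log2 fold changes from -1.53 to -0.52. On chromosome 4, a cluster of 5 loci from 8762953 to 8810512 rose by 0.83 to 1.42. It holds CYP705A2, the triterpene synthase gene BARS1, CYP705A4, AT4G15390 and the merged locus of CYP702A5 and CYP702A6. On chromosome 1, 6 loci from 9126737 to 9150250, AT1G26380 to AT1G26450 with UPS5 among them, rose by 0.41 to 2.34. On chromosome 5, 5 loci from 8157549 to 8189406 fell, by 0.75 to 2.38, among them SIGE, a plastid sigma factor gene, and SQE6, a squalene epoxidase-like gene.

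On chromosome 4, 6 loci between AT4G22485 and AT4G22517 fell, from 11844229 to 11857313, with log2 fold changes from -1.58 to -1.10. The NPF family of nitrate and peptide transporters had 6 rises and 6 falls among 22 tested loci in the authors' deposited table. Over all members 13.8% rose and 14.5% fell. NRT1.5, which loads nitrate into the xylem, had 51.1 FPKM in 310-3d and 19.7 in WT (1.33), and NRT1.8, which takes it back, had 15.2 in 310-3d and 3.94 in WT (1.71). PTR5, a peptide transporter gene, had 0.663 in 310-3d and 4.54 in WT (-1.74).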
